A study of Mus musculus with 9 samples.

Results

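The uroplakins were examined across 9 Affymetrix arrays of mouse urogenital sinus, the embryonic chamber below the bladder that forms the prostate, the urethra and, in females, part of the vagina. They were taken as every probe set annotated to Upk1a, Upk1b, Upk2, Upk3a or Upk3b alone, which gave 5 of the 18194 genes that have a probe set annotated to them alone, and 9 of all 45101 probe sets: 4 for Upk1b, 2 for Upk3b and 1 for each other gene. All tissue came from C57BL/6 fetuses or newborns, with males and females both dissected. Pregnant females received, in tocopherol-stripped corn oil, either 20 µg/kg/day of BPA (bisphenol A, a weakly estrogenic building block of plastics) or 0.2 µg/kg/day of DES (diethylstilbestrol, an estrogen made for use as a drug) from embryonic day 13 to 16, and the Control group is labelled as exposed to vehicle. Each agent was sampled once at embryonic day 17 (E17), once at embryonic day 18 (E18) and once on the day of birth (P0), so each combination of agent and age is 1 array and an agent's 3 arrays are its 3 ages. How many animals or litters went into an array, and of which sex, is not in the labels, and the protocol states that the bladder, the urethra and the Wolffian and Mullerian ducts were cut away. P-values therefore measure array-to-array spread, part of which may be technical. In the fit with agent and age as factors, any change of an agent's difference with age also counts as spread.

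Uroplakins are the membrane proteins of the urothelium, the stretchable lining of the urinary tract. Upk1a and Upk1b are tetraspanins, proteins that cross the membrane several times. Upk1a pairs with Upk2, and Upk1b pairs with Upk3a or, in its place, Upk3b. The pairs assemble into rigid plaques that cover the apical surface of umbrella cells and make it nearly impermeable. Upk3b is also made by mesothelium, the lining of the body cavities, and Upk1b is found in some other epithelia. In whole tissue, more urothelial cells and more uroplakin RNA per cell cannot be told apart.

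The tissue was checked for markers of epithelium. Cdh1, Epcam and the basal cell markers cannot tell urothelium from other epithelium of the sinus, so they do not test the urothelial label. All 9 uroplakin probe sets passed the filter on dim values, a mean signal of about 41.2, which left 26999 probe sets for testing. Cdh1 (E-cadherin) read 2130 to 2672, Epcam (an epithelial adhesion protein) 1355 to 1839, Krt5 (a basal cell keratin) 575 to 1106 and Trp63 (a basal cell transcription factor) 303 to 462 across the arrays. Krt20, the keratin of mature umbrella cells, read 47.2 to 130.3, close to that filter. The deposited signals were not scaled to a common level, their trimmed means running from 157 (BPA, P0) to 277 (DES, E17). All signals below are therefore quantile-normalised, in arbitrary linear units that compare 1 probe set across arrays and not probe sets with each other.

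Upk1a, the tetraspanin partner of Upk2, read 886 at E17, 772 at E18 and 780 at P0 on the Control arrays. On the DES arrays it read 1031, 1011 and 1209, and on the BPA arrays 1480, 1281 and 809. All 3 DES arrays lay above all 3 Control arrays, while the BPA P0 array fell between the Control values. The mean was 812 ± 63.6 in Control, 1084 ± 109 after DES and 1190.0 ± 345 after BPA (SD, n = 3 arrays, here and below over the 3 ages).

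Upk2, the single-pass partner of Upk1a, read 673, 464 and 633 at E17, E18 and P0 on the Control arrays. It read 630, 735 and 713 on the DES arrays and 895, 685 and 608 on the BPA arrays. The 3 agents overlapped, with means of 590 ± 111 in Control, 693 ± 55.6 after DES and 730 ± 148 after BPA. The Control E18 array was the lowest of the 9 and the BPA E17 array the highest.

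Upk1b, the tetraspanin partner of Upk3a and Upk3b, was measured by 4 probe sets. Its probe set 1435831_at read 1500, 1330 and 1586 on the Control arrays, 1566, 1993 and 2290 on the DES arrays, and 2360, 1994 and 2013 on the BPA arrays. All BPA arrays lay above all Control arrays, and the DES E17 array lay within the Control range. Its probe set 1457065_at gave 1337, 1146 and 1406 in Control, 1340, 1438 and 1862 after DES, and 2076, 1850 and 2073 after BPA. The means of 1457065_at were 1296 ± 134, 1547 ± 277 and 2000 ± 129, with the BPA arrays again clear of the Control arrays. The probe set 1455464_x_at behaved alike, from 1069 on the Control E18 array to 2170 on the BPA E17 array. The probe set 1439760_x_at differed: its lowest value was on the Control P0 array (575), its highest on the DES E18 array (993), and its 3 BPA values were 942, 825 and 901. The ending in x, which 1455464_x_at carries too, marks probe sets whose probes can also bind other transcripts, so the values of both may include other RNA.

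Upk3a, the single-pass partner of Upk1b, read 1016, 901 and 1025 on the Control arrays. It read 1227, 1459 and 1472 on the DES arrays and 1860, 1471 and 1263 on the BPA arrays. The Control arrays did not overlap with either exposed group, and the means were 981 ± 69.4 in Control, 1386 ± 138 after DES and 1532 ± 303 after BPA. Upk3a and the Upk1b probe set 1455464_x_at were the 2 uroplakin probe sets with no overlap between Control and either agent. Of all tested probe sets, 5.05% lay above Control in this way after BPA and 5.87% after DES. The share for both agents at once was not counted, and both use the same Control arrays.

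Upk3b, the alternative partner of Upk1b that mesothelium also makes, was measured by 2 probe sets. On 1454881_s_at the Control arrays read 436, 422 and 539, the DES arrays 431, 596 and 644, and the BPA arrays 739, 716 and 598. On 1434237_at the values were 321, 263 and 362 in Control, 327, 338 and 473 after DES, and 544, 412 and 395 after BPA. On both probe sets the 3 BPA arrays lay above the 3 Control arrays, and the DES E17 array lay within the Control range.

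**Figure D1:**
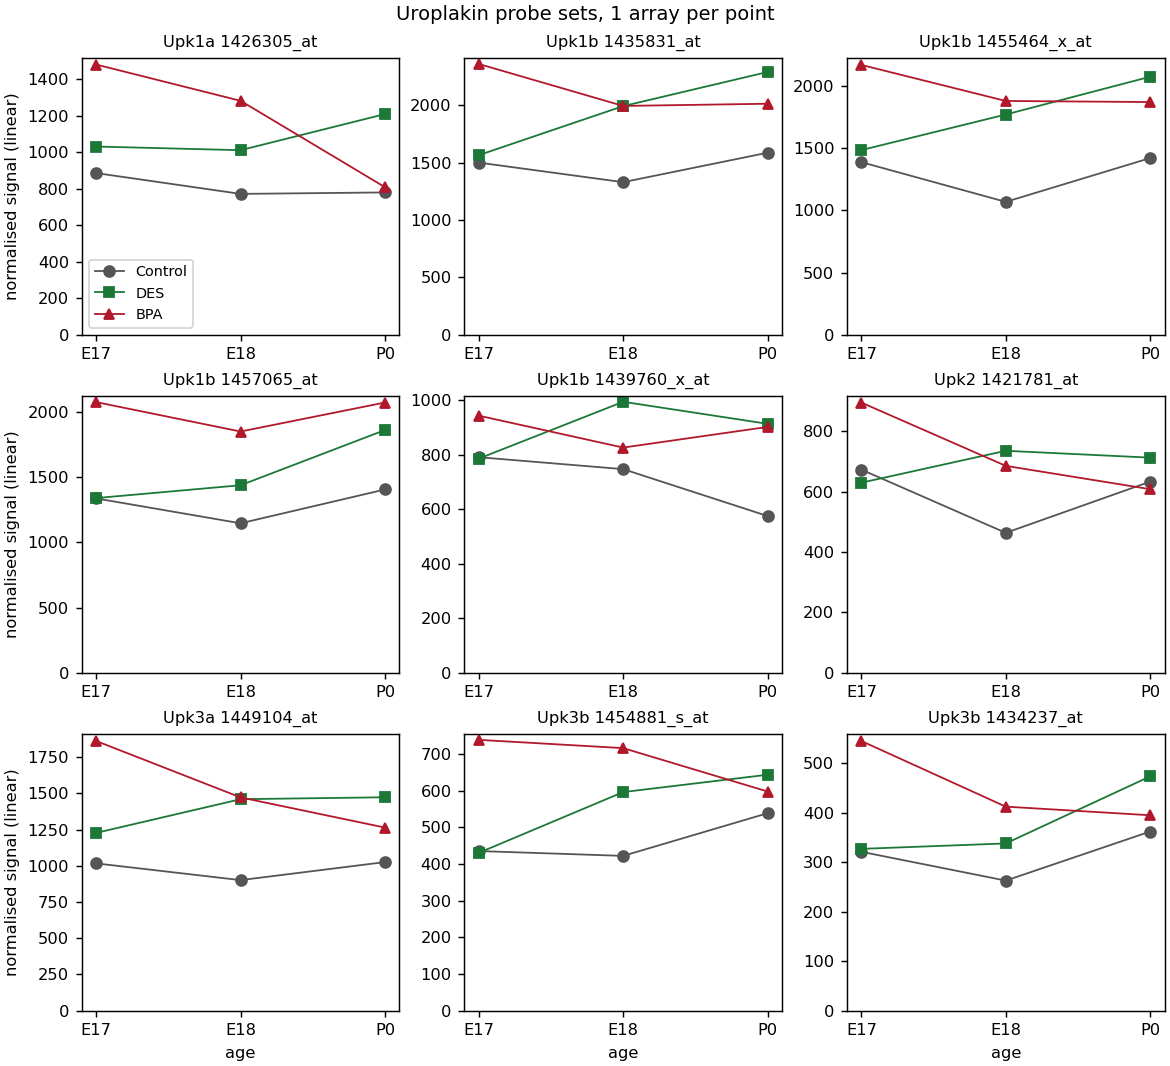
Quantile-normalised linear signal (y axis, from 0) of the 9 uroplakin probe sets at E17, E18 and P0 (x axis), 1 array per point and 1 line per agent. The BPA E17 array holds the highest value in 8 of the 9 panels and the Control E18 array the lowest in 8.

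Control had the lowest mean in 9 of 9 probe sets and BPA the highest in 8. The exception was 1439760_x_at of Upk1b, with 897 ± 105 after DES and 890 ± 59.3 after BPA. The ranges of the DES and BPA arrays overlapped in all 9 probe sets. The shares of all tested probe sets with these orders and overlaps were not counted. The doses of DES and BPA differ and both are set against the same 3 Control arrays, so their values are given side by side and not compared.

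BPA against vehicle is the comparison named in the title of the series. All 9 uroplakin probe sets were higher after BPA, by 0.30 to 0.63 log2 units with a median of 0.53, where 49% of all tested probe sets were higher and their median was -0.0043. The log2 difference was largest for 1457065_at of Upk1b (0.63 ± 0.10, SE; limma unadjusted p = 8.56e-05) and for Upk3a (0.62 ± 0.14; unadjusted p = 0.00124). The other Upk1b probe sets had 0.62 ± 0.13 (1455464_x_at), 0.53 ± 0.13 (1435831_at) and 0.35 ± 0.14 (1439760_x_at). The Upk3b probe sets had 0.55 ± 0.16 and 0.51 ± 0.17, Upk1a 0.51 ± 0.18 and Upk2 0.30 ± 0.16.

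None of these differences passed the adjustment over all probe sets. The smallest limma adjusted p of a uroplakin was 0.319 (1457065_at of Upk1b), Upk2 had 0.699, and 0 of 26999 probe sets were called at 0.05 (0%). Of all tested, 7.84% had an unadjusted p under 0.05. Higher with such a p were 8 of the 9 uroplakin probe sets, of Upk1a, Upk1b, Upk3a and Upk3b, against 3.53% of all tested probe sets. All 3 BPA arrays exceeded all 3 Control arrays in 7 of 9, those of Upk1b, Upk3a and Upk3b, against 5.05% of all tested. Upk1b and Upk3b are measured more than once, so the probe sets of a gene are not independent counts. With the signals as deposited, not scaled between arrays, 0 of the 9 had an unadjusted p under 0.05 and the median was 0.27, where that of all tested was -0.24. Without the BPA E17 array 5 probe sets had an unadjusted p under 0.05, and without the Control E18 and BPA E17 arrays together 1 did, with a median of 0.25. For these changed fits the share of all tested with such a p is not given here.

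By age, the median BPA difference was larger at E17 and E18 than at P0. At E17 all 9 probe sets were above the Control array of that age, by 0.25 to 0.87 log2 units with a median of 0.65, Upk3a being the highest. At E18 all 9 were above it, by 0.14 to 0.81 with a median of 0.69. At P0 the median was 0.30 and the range -0.06 to 0.64, with Upk2 at -0.06 and Upk1a at 0.05. The 0.64 belonged to 1439760_x_at of Upk1b, which went the other way, with 0.25 at E17 and 0.14 at E18. The median of all tested probe sets was -0.0043, -0.0102 and -0.0038 at E17, E18 and P0. Higher at all 3 ages were 8 of 9 probe sets, Upk2 being the exception, against 14.5% of all tested. With the signals as deposited, 0 of 9 were above Control at P0 (median -0.38), where the median of all tested probe sets was itself -0.60 on that array, and 7 of the 9 lay above that median. With each array scaled to a common trimmed mean, 8 of 9 were above Control at P0.

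**Figure D2:**
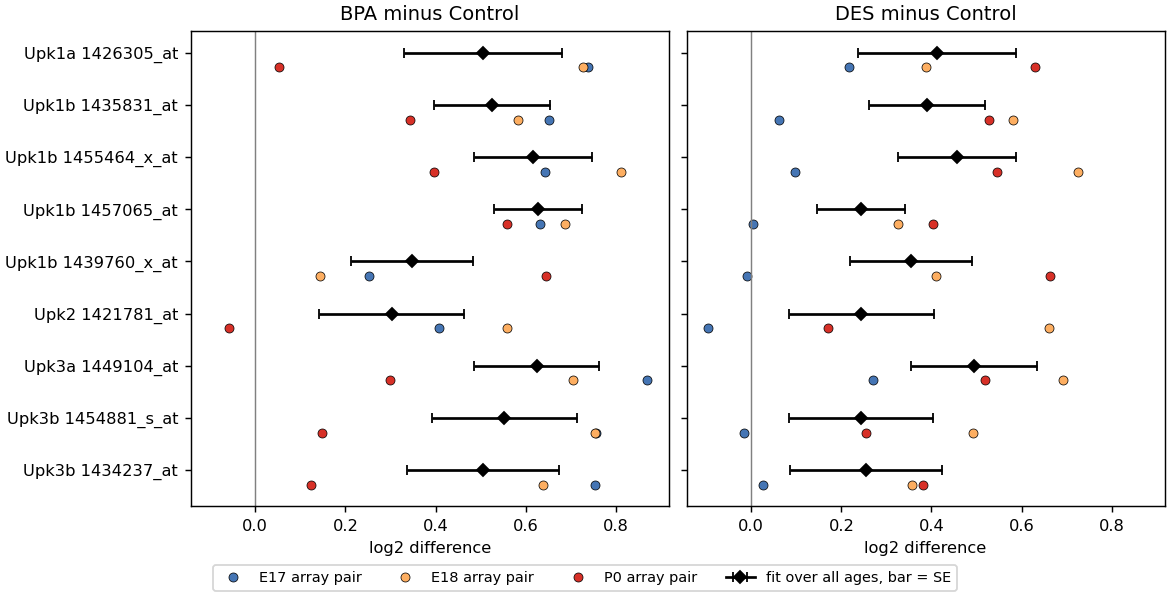
Log2 differences (x axis) of each uroplakin probe set (y axis) for BPA minus Control (left) and DES minus Control (right); black diamonds are the fit over all ages with its SE, and coloured points are the array pairs at E17, E18 and P0. In the left panel the P0 point lies lowest in 8 rows, while in the right panel the E17 point does so in 9.

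A change of the BPA difference with age was tested as a log2 difference per age step. It was above 0 in 1 of 9 probe sets, 1439760_x_at of Upk1b (50.3% of all tested), and below 0 in 8, from -0.34 to 0.20. Upk1a had -0.34 ± 0.13 per step (unadjusted p = 0.0271, limma adjusted p = 0.53) and Upk3a -0.28 ± 0.11 (unadjusted p = 0.0312, limma adjusted p = 0.546). Of the 9, 3 had an unadjusted p under 0.05 with a lower value, against 4.85% of all tested probe sets (8.56% in either direction), and none passed the adjustment, which 0.00741% of all tested did. Without the BPA P0 array the value of Upk1a was 0.0084, so it rested on that array. Without the Control P0 array the value of Upk3a was -0.076, and without the Control E17 array -0.49.

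DES against vehicle gave differences of the same sign. All 9 uroplakin probe sets were higher after DES, by 0.24 to 0.49 log2 units with a median of 0.35, where 50.8% of all tested were higher and the median of all was 0.0035. Upk3a had the largest log2 difference, 0.49 ± 0.14 (limma unadjusted p = 0.00546), followed by 1455464_x_at of Upk1b with 0.46 ± 0.13 and Upk1a with 0.41 ± 0.18. The other Upk1b probe sets lay between 0.24 and 0.39, and Upk2 and both Upk3b probe sets at 0.24 to 0.25 with an unadjusted p of 0.16 to 0.161. The smallest limma adjusted p of a uroplakin was 0.843, and 0 of 26999 probe sets were called (0%). Of all tested, 5.63% had an unadjusted p under 0.05, and 6 of 9 uroplakin probe sets, of Upk1a, Upk1b and Upk3a, were higher with such a p, against 2.9% of all tested. All 3 DES arrays exceeded all 3 Control arrays in 3 of 9, of Upk1a, Upk1b and Upk3a, against 5.87% of all tested. The count of 6 was 2 without the DES E18 or without the DES P0 array, 3 without the Control E18 or without the Control P0 array, and 9 without the DES E17 array. The shares of all tested with such a p in these fits are not given here, so the counts cannot be set against them. The median was 0.19 without the DES P0 array.

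At E17, 6 of 9 uroplakin probe sets were higher on the DES than on the Control array, the differences running from -0.09 to 0.27 with a median of 0.03, Upk3a (0.27) and Upk1a (0.22) being the highest. At E18 all 9 were above the Control array, by 0.33 to 0.73 with a median of 0.49. At P0 all 9 were, by 0.17 to 0.66 with a median of 0.52. The median of all tested probe sets was 0.0027, 0.0146 and 0.0020 at E17, E18 and P0. Higher than Control at all 3 ages were 6 of 9 probe sets, against 14.7% of all tested. The change per age step was above 0 in 9 of 9 (50.4% of all tested), from 0.12 to 0.34, and 1 of them, 1439760_x_at of Upk1b, had an unadjusted p under 0.05 (7.22% of all tested). The smallest limma adjusted p of these was 0.677, and 0% of all tested were called. The step values of BPA and DES have opposite signs in 8 probe sets, a share that was not counted over all tested. Both use the same Control arrays, and the difference between them was not tested.

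No uroplakin passed the test between ages. Between E17 and P0, 5 of 9 probe sets were higher (48.9% of all tested), with differences of -0.27 to 0.19 log2 units and a median of 0.08. The smallest limma adjusted p among them was 0.372, and 0 of 9 were called where 0.0926% of all tested were. With an unadjusted p under 0.05 there were 0 of 9, against 17.3% of all tested. From E17 to E18 the median was -0.09, 2 of 9 being higher (50.3% of all tested) and 0 called (0%), with 0 of 9 at an unadjusted p under 0.05 (2.75% of all tested). From E18 to P0 it was 0.08, 6 of 9 being higher (48.8% of all tested) and 0 called (0%). One probe set had an unadjusted p under 0.05 in this step (13.5% of all tested), 1457065_at of Upk1b, with a log2 difference of 0.28 ± 0.10 (limma adjusted p = 0.298). Without the BPA P0 array the median from E18 to P0 was 0.27. Within an agent the directions differed: between E17 and P0, Upk1a had a log2 difference of -0.18 on the Control arrays, 0.23 on the DES arrays and -0.87 on the BPA arrays, and Upk3a had 0.01, 0.26 and -0.56.

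The uroplakins followed each other across the 9 arrays. Taking the brightest probe set of each gene, the 10 pairs had Pearson correlations of 0.70 to 0.93 in log2 signal, with a median of 0.82, as a description over arrays that share agents, ages and normalisation. The highest was between Upk1b and its partner Upk3a, and Upk1a and its partner Upk2 had 0.79. The 8 pairs with 1439760_x_at of Upk1b had 0.42 to 0.71, and the 28 pairs without it 0.60 to 0.98. Within Upk1b, 1439760_x_at therefore departed from the other 3 probe sets of its own gene more than those did from Upk3a.

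**Figure D3:**
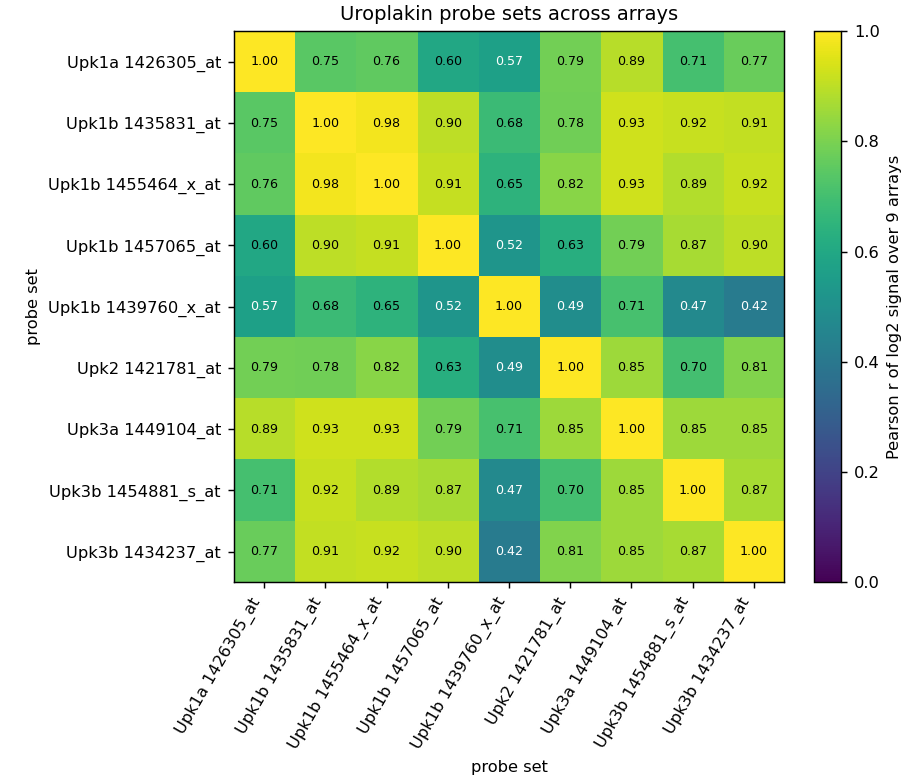
Pearson correlation of log2 signal over the 9 arrays between each pair of uroplakin probe sets (both axes), with the value printed in each cell. The row of the Upk1b probe set 1439760_x_at holds the darkest cells, with values of 0.42 to 0.71 against the other probe sets.

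Among 13394 other tested genes, those most like the mean profile of Upk1a, Upk1b, Upk2 and Upk3a over the 9 arrays were Fa2h (r = 0.96), Ap1s1 (0.95), Kcnj11 (0.95), Sptssb (0.93) and Tcam1 (0.91), where 95% of genes had an r below 0.59. Sptssb, a small subunit of the enzyme that begins sphingolipid synthesis, ran from 276 to 1184 across the arrays and had a log2 difference of 1.46 ± 0.31 after BPA (limma adjusted p = 0.33). Fa2h, a fatty acid hydroxylase, ran from 169 to 298. For Upk3b the most alike were Crb3 (0.92), Acaa1b (0.92), S100a6 (0.92), Rnf128 (0.92) and Zbtb8a (0.91). S100a6, a calcium-binding protein gene, ran from 2779 to 5072 and had 0.61 ± 0.09 after BPA (limma adjusted p = 0.319).

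The stretches before the start sites of the genes are shown as a description only, and a link to the correlations was not tested. RefSeq windows of 300 bases, 250 before to 50 after the start site (GRCm38.p6), were held for 3 of the 5 genes. Each is written 5′ to 3′ on the gene's own strand, with matches to 5 short motifs in capitals.
Upk1a, chr7:30612685-30612984, minus strand: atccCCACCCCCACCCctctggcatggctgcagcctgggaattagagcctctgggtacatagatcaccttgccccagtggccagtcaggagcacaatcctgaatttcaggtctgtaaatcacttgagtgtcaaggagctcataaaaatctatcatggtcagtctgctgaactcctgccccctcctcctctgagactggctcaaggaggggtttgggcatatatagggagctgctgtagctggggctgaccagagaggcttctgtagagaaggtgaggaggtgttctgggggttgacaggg
Upk3a, chr15:85016891-85017190, plus strand: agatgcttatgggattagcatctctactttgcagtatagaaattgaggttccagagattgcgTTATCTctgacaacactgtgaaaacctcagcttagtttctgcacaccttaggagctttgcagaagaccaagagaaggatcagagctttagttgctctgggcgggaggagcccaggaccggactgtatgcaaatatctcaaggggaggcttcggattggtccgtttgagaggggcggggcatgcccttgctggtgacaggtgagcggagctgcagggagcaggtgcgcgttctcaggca
Upk3b, chr5:136038246-136038545, plus strand: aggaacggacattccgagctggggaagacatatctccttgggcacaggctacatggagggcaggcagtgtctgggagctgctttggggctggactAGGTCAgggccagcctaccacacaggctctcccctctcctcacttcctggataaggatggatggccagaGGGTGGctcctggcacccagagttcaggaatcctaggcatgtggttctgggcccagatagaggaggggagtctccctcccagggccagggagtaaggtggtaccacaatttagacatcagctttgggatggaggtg

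The motifs were searched on both strands. CCACCC, a core of Krueppel-like factor sites, occurred at 246 and 240 bases before the start site in Upk1a and, on the other strand, at 86 before it in Upk3b, and 31.5% of the 32851 windows held it. AGATAA, the motif of GATA factors, occurred once in Upk3a on the other strand, 188 bases before the start (11.2% of windows). AGGTCA, the core element of nuclear receptors that include the estrogen receptors and PPARs, occurred in Upk3b, 155 bases before the start (16.3% of windows). The Grainyhead motif AACCGGTT and the forkhead motif TGTTTAC were matched in none of the 3, and 0.146% and 3.65% of windows held them. No match overlapped another. No motif was shared by all 3 windows, and a match is a run of letters, not a bound site.

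The other genes of the urothelium were set beside the uroplakins by list. After BPA, 7 of 8 urothelial keratins were higher with a median of 0.28, and 4 were higher with an unadjusted p under 0.05, where 3.53% of all tested were: Krt8 (0.35 ± 0.09) and Krt18 (0.45 ± 0.11), the pair of simple epithelia, Krt7 (0.40 ± 0.13), and Krt20 (0.78 ± 0.27). Of the 10 genes of apical membrane and plaque trafficking, 7 were higher with a median of 0.15. Rab27b, a small GTPase of the vesicles that carry uroplakins to the surface, had 0.57 ± 0.15 and Mal, an apical sorting protein, 0.40 ± 0.11. Rab27b read 283, 268 and 286 on the Control arrays and 445, 490 and 334 on the BPA arrays. Mal read 733, 783 and 829 against 1118, 1056 and 923. In both genes the BPA arrays lay above the Control arrays, as in 5.05% of all tested probe sets. Both were named for their small p in this same comparison, so the lack of overlap is not a separate result. None of these genes passed over all probe sets (limma adjusted p = 0.407 to 0.505).

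Of 13 genes of urothelial junctions and the apical barrier, 9 were higher after BPA with a median of 0.07. Aqp3, a water and glycerol channel of the urothelium, had 0.75 ± 0.15 (limma adjusted p = 0.329) and read 389, 325 and 346 on the Control arrays and 650, 571 and 568 on the BPA arrays. Upk3bl, a relative of Upk3b on the same chromosome, lay lower after BPA: it read 215, 201 and 134 on the Control arrays and 174, 167 and 102 on the BPA arrays, a difference of -0.31 ± 0.16 (limma adjusted p = 0.686). Of 16 urothelial regulators, 9 were higher with a median of 0.0065, and 0 were higher with an unadjusted p under 0.05. Gata3, a transcription factor of the urothelium, had -0.28 ± 0.12 and Notch1 -0.27 ± 0.12 (limma adjusted p = 0.611 and 0.63). Cdh1 and Epcam, carried by all epithelial cells of the tissue and part of the check above, had 0.04 ± 0.08 and -0.07 ± 0.10 after BPA. On each array the mean log2 signal of the uroplakins was set against that of Cdh1, Epcam, Krt8, Krt18 and Krt19, a reference chosen after their values were seen. The gap was -1.35, -1.59 and -1.19 at E17, E18 and P0 in Control, -1.17, -1.09 and -1.02 after DES, and -0.945, -0.998 and -1.25 after BPA. The smaller gap after BPA was thus seen before birth and not at P0.

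After DES, 8 of 8 urothelial keratins were higher with a median of 0.18, 6 of 10 trafficking genes with a median of 0.03, 9 of 13 barrier genes with a median of 0.06 and 8 of 16 regulators with a median of 0.01. Of the barrier genes, 3 were higher and 1 lower with an unadjusted p under 0.05, where 2.9% and 2.73% of all tested were. Aqp3 had 0.53 ± 0.15 and read 425, 494 and 634 on the DES arrays. Ocln, of the same list, read lower, at 269, 324 and 331 against 375, 408 and 416 in Control. Ezr (ezrin, which ties the apical membrane to actin) had -0.28 ± 0.09 and Rab8a, a small GTPase of apical transport, -0.27 ± 0.08. None passed over all probe sets (limma adjusted p = 0.843 for each of Aqp3, Ezr and Rab8a).

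Between E17 and P0, where the uroplakins had a median of 0.08, 13 of 16 urothelial regulators were lower with a median of -0.24, and 5 were lower with an unadjusted p under 0.05, where 9.27% of all tested were. Shh, the epithelial ligand that signals to the mesenchyme, had -0.50 ± 0.11 (limma adjusted p = 0.109), Foxa2, a forkhead factor, -0.61 ± 0.20, and Ehf and Elf3, epithelial ETS factors, -0.50 ± 0.18 and -0.40 ± 0.15. The urothelial keratins did not move as 1 group: 4 of 8 were higher, with a median of -0.03. With an unadjusted p under 0.05, 2 of them were lower, where 9.27% of all tested were. These were Krt5 (-0.48 ± 0.13) and Krt13, a keratin of stratified mucosa (-1.28 ± 0.28, limma adjusted p = 0.148 and 0.109). Krt13 was dim, at 20.5, 37.4 and 15.7 on the Control, DES and BPA P0 arrays, under the filter signal of about 41.2.

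**Figure D4:**
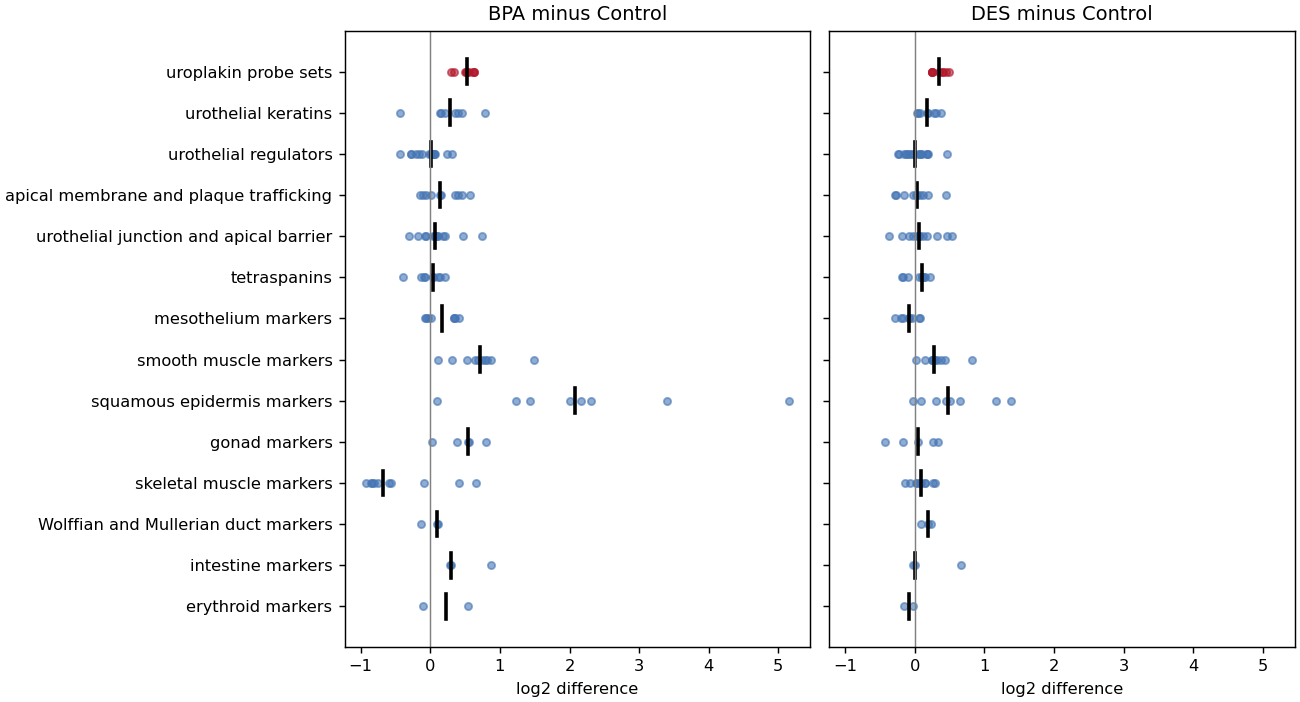
Log2 differences (x axis, the same in both panels) for BPA minus Control (left) and DES minus Control (right), 1 point per tested gene, or per probe set in the uroplakin row, with a black bar at each row's median. The uroplakin points all lie above 0, and the urothelial regulators lie on both sides of it. After BPA the smooth muscle and squamous epidermis points all lie above 0, some of them close to it. Skeletal muscle points lie on both sides, 2 of 10 above 0, with a median of -0.67.

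Markers of other cell types also differed on the BPA arrays, and none of those tested passed over all probe sets in that comparison. Smooth muscle markers were higher in 10 of 10 with a median of 0.72, their summed signal running from 26217 to 42658 on the Control arrays and from 40973 to 45626 on the BPA arrays. Squamous epidermis markers were higher in 8 of 8 tested with a median of 2.08, their sum after BPA being 2079 (E17), 8552 (E18) and 21756 (P0), against 1460 to 1675 in Control. Gonad markers summed to 3884 on the BPA P0 array and to 636 to 759 on each other array. Amh, Hsd3b1, Cyp11a1 and Cyp17a1 fell below the filter on the mean over all arrays and were not tested. On the BPA P0 array Hsd3b1 nevertheless read 886, Amh 296 and Cyp17a1 110. Their highest values on the other arrays were 10.4, 8.1 and 11.9. Cyp11a1 read 38.8 on the BPA P0 array. Skeletal muscle markers were lower in 8 of 10 with a median of -0.67. The BPA E17 array, which held the highest signal of 8 uroplakin probe sets, had of all 9 arrays the highest smooth muscle sum (45626), the highest intestine sum (896) and the lowest skeletal muscle sum (10853). The Control E18 array, which held the lowest signal of 8, had the lowest smooth muscle sum (26217) and the lowest intestine sum (211). The Control E17 and P0 arrays had smooth muscle sums of 42658 and 28588. With both later BPA arrays left out, which held the 2 highest epidermis sums, the uroplakin median was 0.82. That fit leaves 1 BPA array, the E17 array with the highest signal of 8 uroplakin probe sets. The part of these other tissues in the uroplakin differences was not tested.

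Mesothelium markers bear on Upk3b. Of 8, 5 were higher after BPA with a median of 0.17 and 2 after DES with a median of -0.08, and 0 had an unadjusted p under 0.05 in either. Their sum was 2647 to 2790 on the Control arrays, 2343 to 2677 on the DES arrays and 2628 to 2960 on the BPA arrays. Most of it came from Aldh1a2 (1379 to 1867 across the arrays) and Wt1 (418 to 684), so it hardly reflects the dimmer markers. On the BPA E17 array, where both Upk3b probe sets were highest, 5 of the 8 were above the Control array of that age, among them Wt1, a transcription factor of the mesothelium (544 against 484), and Lrrn4 (102 against 76.3). Msln, the gene of mesothelin, was below it (74.8 against 126). The part of mesothelium in the Upk3b values was not tested. Wolffian and Mullerian duct markers (5 probe sets, of which those of Lhx1 and Ros1 were too dim to test) summed to 462 to 565 over all arrays. Intestine markers summed to 211 to 385 in Control and 268 to 314 after DES. After BPA they summed to 896, 275 and 424 at E17, E18 and P0. Of them, Cdx2, Vil1, Fabp1, Fabp2 and Cdh17 fell below the filter on the mean over all arrays and were not tested. On the BPA E17 array Fabp2 nevertheless read 378 and Fabp1 180. Erythroid markers summed to 393 to 2314, highest on the BPA E18 array.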

How the data were processed

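The authors deposited 1 linear intensity per probe set and array. The submitters' processing notes name MAS5, which summarises the probes of a set; its version and scaling are not given in the sources used here. Of 45101 probe sets, 64 are array controls, and 0 values were missing and 0 array pairs identical. By the platform annotation 34958 probe sets have 1 gene symbol, 932 several and 9211 none listed. The intensities were quantile-normalised and transformed as log2(signal + 5.46), the 10th percentile, which understates changes of dim genes. The 26999 non-control probe sets whose mean log2 level reached the 40th percentile were fitted with limma 3.58.1 in R 4.3.3 (lmFit, eBayes with an intensity trend), with agent and age as factors, 4 residual degrees of freedom and Benjamini-Hochberg adjustment over all of them at 0.05. A model with a linear age term per agent leaves 2. The fit was tested on simulated data. The number of arrays limits the precision.

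The members and the 13 gene lists (127 genes, 119 on the array, 105 tested) were chosen with earlier results of these data known. Named genes are all 5 members and, in each urothelial list, at most the 4 with the smallest p in BPA against Control or P0 against E17; Cdh1, Epcam, Krt5, Krt20 and Trp63 check the tissue, and other names were chosen after their values were seen. A gene of a list stands by its brightest probe set. The age factor takes the place of a replicate block.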

Additional observations from a re-analysis of the deposited data

How the results depend on the processing

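Over 20 alternatives, 0 of 176 uroplakin values in the BPA comparison and 0 of 176 in the DES comparison passed the adjustment, with limma adjusted p from 0.151 and 0.632 upward. Their sign turned once, Upk2 after BPA (-0.10) without the Control E18 and BPA E17 arrays, a pair chosen after seeing the data. In the 3 age comparisons 22, 18 and 20 of 167 signs turned each, and in the age steps 8 and 9 of 140.

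The uroplakin median after BPA was 0.27 with deposited values, where the median of all was -0.24. With those values 0 uroplakin probe sets had an unadjusted p under 0.05. The uroplakin median was 0.82 without both later BPA arrays (E18, P0), which leaves only the BPA E17 array. It was 0.25, with 1 such probe set, without the Control E18 and BPA E17 arrays. Leaving out single arrays gave 0.38 to 0.73 and 5 to 8 such probe sets after BPA, and 0.19 to 0.51 and 2 to 9 after DES. After DES the count was 3 with no intensity trend and 2 without the Control E18 and BPA E17 arrays. No share of all tested under the same settings stands beside these counts. They therefore do not show whether the uroplakins moved more than other probe sets. Leaving out single arrays, the age medians ran from -0.26 to 0.02 (E18 against E17), -0.047 to 0.27 (P0 against E18) and -0.097 to 0.23 (P0 against E17), and the first was 0.18 without the Control E18 and BPA E17 arrays. Upk1a's BPA step ran from -0.69 to 0.0084.

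Probe sets called over all tested, with deposited values, were 36 for BPA, 3 for E18 against E17, 7 for P0 against E18, 392 for P0 against E17, and 453 and 80 for the BPA and DES steps, and 0 for DES. With 1 probe set per gene they were 2 for BPA, 83 for P0 against E17 and 8 for the BPA step. For P0 against E17 the count of 25 became 63 with pseudocount 50, 7 with no filter or without the Control E18 and BPA E17 arrays, and 0 with no intensity trend or without either other pair of arrays. The BPA step's 2 became 16 with pseudocount 50 and 0 with no intensity trend. BPA gave 4 without both later BPA arrays (E18, P0) and 6 without the Control E18 and BPA E17 arrays. Leaving out single arrays gave 0 to 7 for BPA, 0 to 1 for E18 against E17, 0 to 663 for P0 against E18, 0 to 1606 for P0 against E17 (both highest without DES P0), and 0 to 166 and 0 to 132 for the steps. The age steps could not be fitted without pairs of arrays. The cause of these shifts was not tested. The labels carry no replicate numbers, and the paired fit is the one with age as a factor. With no age term 8 uroplakin probe sets after BPA and 5 after DES were higher with an unadjusted p under 0.05. The share of all tested with such a p is not given for that fit, and 0 probe sets were called in either.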

Other observations

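Other genes of the tetraspanins, the family to which Upk1a and Upk1b belong, were measured too. Of 9, 5 were higher after BPA with a median of 0.04 and 6 after DES with a median of 0.10, where 49% and 50.8% of all tested probe sets were higher. The uroplakin medians were 0.53 and 0.35, and the difference between the lists was not tested. Tspan1, found in secretory epithelia, had a log2 difference of -0.40 ± 0.16 after BPA (limma adjusted p = 0.603), and Cd82 had 0.21 ± 0.10 (limma adjusted p = 0.684). After DES Cd81, present on most cell types, had -0.17 ± 0.06 (limma adjusted p = 0.843).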
